A study of Mus musculus with 287 samples.

Results

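Cells of mouse cerebral organoids in which Emx1 was counted were compared with cells in which it was not. A cell was called Emx1-expressing where Emx1 reached at least 10 CPM (exon counts per 1000000 exon counts of the cell) and Emx1-negative where its exon count was 0. Kept were cells with a clone label in whose library 1000 or more genes had an exon count, 90 on plate 1, 80 on plate 2 and 77 on plate 3, while 37 labelled cells with fewer genes and 3 cells without a clone label were left out. The rule gave 51 Emx1-expressing cells (19, 14 and 18 on the 3 plates), which is 20.6% of the kept cells, and 66.0% of the kept cells were Emx1-negative (56, 59 and 48). A further 33 cells (15, 7 and 11) had an Emx1 count below 10 CPM and entered neither group.

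Emx1 encodes a homeodomain transcription factor of the dorsal telencephalon, the pallium, from which the cerebral cortex and hippocampus form. In the embryo it is expressed in the dividing radial glia of the pallium and remains on in many of the glutamatergic neurons they produce. Its relative Emx2 overlaps with it, and Pax6 and Lhx2 are other factors used to recognise this tissue. Because of this pattern, Emx1 regulatory sequence is widely used to drive Cre recombinase in cortical progenitors.

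All cells came from organoids grown from embryonic stem cells of the genotype MADM-11GT/TG;Emx1-CreER+/-. MADM (mosaic analysis with double markers) leaves daughters of a recombined progenitor green or red, and CreER is active only after 4-hydroxytamoxifen. Every group shared this genotype, the 60 nM dose given on day 13 and the collection on day 20, when cells of located clones were taken one at a time for Smart-seq3 (full-length RNA sequencing of single cells). The labels gave each cell a plate, a clone, a colour and a clone type, SN or N, whose meaning is not stated. They named no organoid or culture, so p-values measure the spread between clones, which may share an organoid. The label of the driver concerns day 13 and the counts concern day 20, so the Emx1 state read here is not that of the recombined progenitor.

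Exon totals of the kept cells ran from 6171 to 13040432 with a median of 1517431. An exon count of 0 therefore limited Emx1 far less in some cells than in others: at 300000 exon counts the threshold of 10 CPM is 3 counts, and 94.1% of Emx1-expressing but 75.5% of Emx1-negative cells had that many. None of the 37 labelled cells under 1000 detected genes had an Emx1 count, and 1 of the 3 cells without a clone label had a count of 3.

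The sequence just upstream of Emx1 is shown because the gene both chose the cells and, by the driver's name, gave the driver its pattern. The window holds the 250 bases before the start site on the plus strand of chromosome 6, chr6:85187681-85187930 (RefSeq, GRCm38.p6), with each CG in capitals.

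Emx1 upstream: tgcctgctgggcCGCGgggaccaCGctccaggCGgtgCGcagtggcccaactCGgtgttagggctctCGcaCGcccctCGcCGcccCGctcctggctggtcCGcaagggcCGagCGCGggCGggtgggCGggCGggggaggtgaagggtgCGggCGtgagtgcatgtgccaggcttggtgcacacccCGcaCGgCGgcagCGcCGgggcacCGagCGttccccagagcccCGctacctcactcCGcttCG

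The window was 75.6% G and C and held 30 CG pairs, against a median of 6 over the same window of 32851 promoters, of which 5.94% held as many. This describes the letters only, and no deposited value measured this region.

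In the 51 Emx1-expressing cells Emx1 ran from 11.3 CPM over a median of 34.1 to 341 CPM, or from 9 to 984 exon counts. Of these cells, 19 reached 50 CPM and 10 reached 100 CPM. Just inside the threshold stood cells at 11.3, 11.5 and 12.1 CPM, and just outside it cells at 8.63, 9.84 and 9.99 CPM, so no gap separated the groups at 10 CPM. These levels chose the cells and are given with no test.

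Emx1-expressing cells made up 21.1%, 17.5% and 23.4% of the kept cells on plates 1, 2 and 3, and 20.6% over all plates (95% Wilson interval 16.1 to 26.1), while 84 cells (34.0%, 28.4 to 40.1) had any Emx1 exon count. These intervals cover counting error only. Within Emx1-expressing cells the median level was 38.5 CPM in SN and 33.3 in N clones, 38.5 in green and 33.8 in red cells, and 30.8, 35.8 and 43.5 CPM on plates 1, 2 and 3. The ranges of these groups overlapped.

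The share of cells in which Emx1 was found depended on how many genes a cell's library detected. The kept cells were put in order of detected genes and cut into 4 bins of 61 or 62 cells. In the bin with the fewest detected genes (1018 to 3174) 8.06% were Emx1-expressing (5 of 62 cells), in the next bins 11.5% and 22.6%, and in the bin with the most (9272 to 16851) 40.3% (25 of 62). Any Emx1 count was found in 11.3%, 14.8%, 33.9% and 75.8% of the cells of these bins. Within the Emx1-expressing cells the order was the other way round: the 19 cells of 50 CPM or more had a median of 5410 detected genes and the 32 cells below it 10674.

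**Figure D1:**
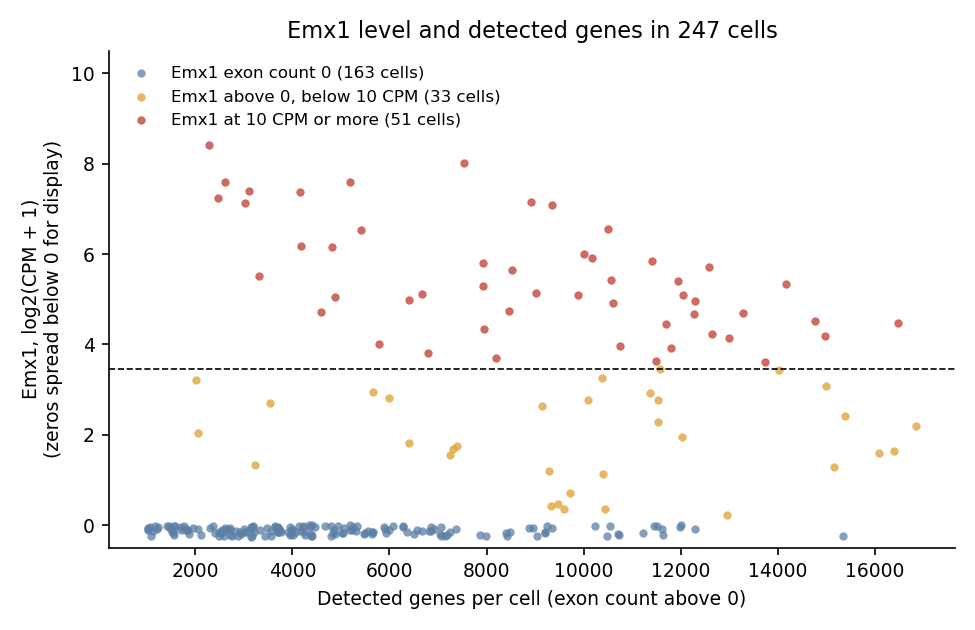
Emx1 level of each kept cell, as log2(CPM + 1), against its number of detected genes; each point is a cell, the dashed line marks 10 CPM, and the points of cells with an Emx1 exon count of 0 are spread below 0 for display. Cells without Emx1 crowd at low numbers of detected genes (median 4186), while cells on both sides of the line reach similar numbers (medians 9016 and 10088). The 19 cells of 50 CPM or more span 2281 to 12589 detected genes.

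Intron reads of Emx1, which the rule did not use, gave a second reading of the gene. They were present in 24 of the 51 Emx1-expressing cells (47.1%), in 10 of the 33 cells below the threshold (30.3%) and in 19 Emx1-negative cells (11.7%, 7.59 to 17.5). In these 19 cells the intron count ran from 1 over a median of 7 to 1088. Some cells without any Emx1 exon count thus carried intron reads assigned to Emx1. Whether the counting used the strand is not given in the sources used here.

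Emx1-expressing cells were spread over many clones and did not fill them. Of 62 clones with at least 2 kept cells, 34 held an Emx1-expressing cell and 28 held none. In 3 clones (42, 51 and 54, of labelled sizes 5, 3 and 2) every kept cell was Emx1-expressing, but each had only 2 kept cells. At least 2 Emx1-expressing cells were found in 10 clones. Clone 16, an N clone of labelled size 19 and 16 kept cells, held the most, 4 Emx1-expressing cells at 25.9 to 71.8 CPM beside 10 Emx1-negative ones. The N clones 39, 49 and 57, with 9, 5 and 5 kept cells, held 3 each, the lowest at 12.1, 25.4 and 14.2 CPM. Sister cells of 1 clone therefore differed in Emx1 state in 27 clones, and these 27 clones, with 39 Emx1-expressing and 78 Emx1-negative cells, carry the comparisons across genes.

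The share of Emx1-expressing cells did not differ detectably between the clone types. It averaged 21.3% per SN clone (SD 27.1, n = 42 clones) and 26.5% per N clone (SD 26.6, n = 20). An Emx1-expressing cell was found in 20 of the 42 SN and 14 of the 20 N clones, but N clones tended to hold more kept cells. Over cells the shares were 19.1% in SN and 22.4% in N clones. The difference of -5.15 percentage points between the clone means was smaller than the spread between clones (two-sided permutation test over clones, p = 0.487, adjusted over both share comparisons 0.487). By plate it was -7.27, -13.7 and 7.05 points, so its sign differed between plates.

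Nor was a difference between green and red cells of the same clones detectable. In 45 clones with both colours, 20.1% of green (SD 35.2) and 26.2% of red cells (SD 38.7) were Emx1-expressing. The share was higher in green cells in 10 clones, higher in red cells in 14 and equal in 21 (sign-flip permutation test, two-sided, p = 0.449, adjusted 0.487).

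Within clones, Emx1-expressing cells had the richer libraries. They detected 8711 genes per cell (SD 3457, n = 27 clones) against 4741 (SD 1879) in their Emx1-negative sisters, and the number was higher in 24 of the 27 clones. Total exon counts averaged 3875991 and 1781669 and were higher in 22 of the 27 clones. With every cell thinned to 100000 exon counts the Emx1-expressing cells still detected more genes, 5781 (SD 2140) against 3622 (SD 1030) in 25 clones, higher in 22 of them, though the states were still those of the full counts. Calling a cell by whether Emx1 was counted favours cells in which more genes were counted, so these values are tied to the rule and are a description with no test.

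One transcript moved the other way. The gene ID ENSMUSG00000119584, which has no symbol in the tables used, took 14.5% of the exon counts (SD 8.60) in Emx1-expressing and 22.5% (SD 15.4) in Emx1-negative cells, lower in 20 of the 27 clones. It is part of the exon total that scales the Emx1 CPM, so this too is a description with no test. By plate the difference was -1.36, -7.34 and -15.9 percentage points, nearly absent on plate 1. Clone 45, whose 1 Emx1-expressing cell is labelled plate 2 and 7 of whose 9 Emx1-negative cells are labelled plate 3, was counted on plate 3, and without it the plate 3 difference was -13.5 points and that of all clones -6.95. The share of mitochondrial transcripts was 6.94% against 6.46% with 12 clones higher and 15 lower, and the intron share was 30.1% against 25.3% (two-sided sign-flip permutation test over clones, adjusted over 6 measures p = 0.149). By plate the intron share differed by -2.45, 2.39 and 15.0 points, so its sign differed between plates. The plate 3 value includes clone 45, whose Emx1-expressing cell had an intron share of 72.7%. For none of the 6 measures was a dependence of the difference on SN or N clones detectable (permutation of the clone type, adjusted p = 0.621 to 0.631).

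**Figure D2:**
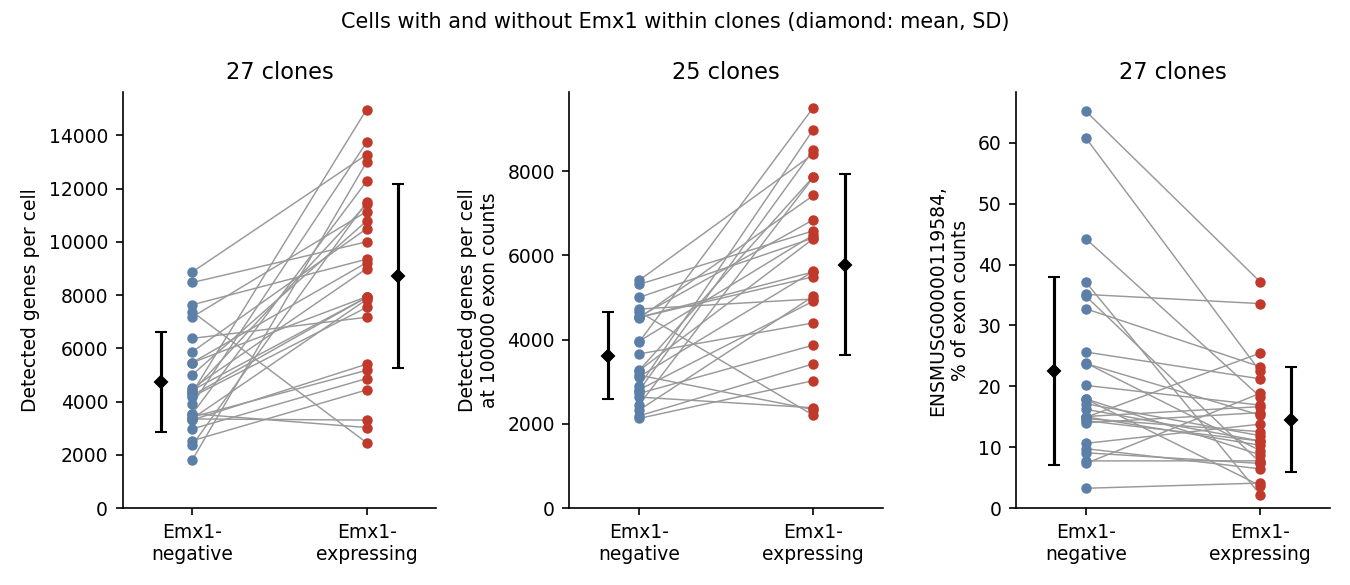
Detected genes per cell, detected genes after thinning each cell to 100000 exon counts, and the share of exon counts of ENSMUSG00000119584, each as the mean of the Emx1-negative and of the Emx1-expressing cells of a clone joined by a line; diamonds and bars give the mean and SD over clones. Most lines rise in the first and second panel (24 of 27 and 22 of 25 clones) and fall in the third (20 of 27).

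The cells below the threshold were near the Emx1-expressing ones in detected genes but not in intron share. Their median was 10088 detected genes, and 6452 at 100000 exon counts, against 9016 and 6104 in Emx1-expressing and 4186 and 3156 in Emx1-negative cells. The median intron share was 23.9% in cells below the threshold, 30.3% in Emx1-expressing and 25.8% in Emx1-negative cells. These medians are a description and were not tested.

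Marker genes of the cell types an organoid could hold were looked up in cells thinned to 100000 exon counts, which left all 51 Emx1-expressing, all 33 cells below the threshold and all but 22 of the Emx1-negative cells. At this depth the median of detected genes was 6104 in Emx1-expressing and 3156 in Emx1-negative cells. Of 27 marker genes, 24 had a higher share in Emx1-expressing than in Emx1-negative cells and 3 a lower one. A higher share is therefore not by itself a mark of a cell type. Lhx2, a selector of cortical identity, was counted in 82.4% of Emx1-expressing and 72.3% of Emx1-negative cells, so most cells of both groups carried it. Pax6, a factor of radial glia in the pallium, was counted in 56.9% and 28.4%, and Emx2 in 35.3% and 25.5%. The summed level of Emx2, Pax6 and Lhx2 ran from 0 over a median of 190 to 1580 CPM in Emx1-expressing and from 0 over 130 to 1290 CPM in Emx1-negative cells, so the groups overlapped over nearly the whole range.

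Emx1-expressing cells carried transcripts of neurons and of progenitors. Among genes of glutamatergic neurons, Neurod2 was counted in 86.3% of Emx1-expressing and 71.6% of Emx1-negative cells, and Bhlhe22 in 90.2% and 61.0%. Tbr1, which specifies early-born cortical neurons, was counted in 76.5% and 44.0%. Among genes of radial glia, Fabp7, a lipid-binding protein, was counted in every Emx1-expressing cell and in 94.3% of Emx1-negative cells. The glutamate transporter gene Slc1a3 was counted in 78.4% and 58.2%, Sox2 in 64.7% and 55.3%, and the Notch target Hes5 in 43.1% and 29.8%. Eomes, the marker of intermediate progenitors, was counted in 43.1% and 24.8%. The summed level of the excitatory neuron markers had a median of 850 CPM in Emx1-expressing and 550 in Emx1-negative cells, and that of the radial glia markers 2160 and 2360 CPM.

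Markers of other cell types were not restricted to Emx1-negative cells. The interneuron gene Gad1 was counted in 21.6% of Emx1-expressing and 13.5% of Emx1-negative cells, and Gad2 in 9.80% and 12.8%. At least 1 of the 5 GABAergic markers was counted in 41.2% and 34.0% of cells, with a median summed level of 0 CPM in both groups and highest values of 290 and 1090 CPM. Reln, the secreted protein of Cajal-Retzius cells, was counted in 68.6% and 48.2%, while Trp73, also of these cells, was counted in 17.6% and 14.2%. The choroid plexus gene Ttr was counted in 23.5% and 21.3%, and Folr1, of the same tissue, in 0% and 2.13%. Of the collagen genes of mesenchyme, Col1a1 was counted in 15.7% and 9.93% and Col3a1 in 25.5% and 29.1%. The cells below the threshold had a share equal to or above that of Emx1-negative cells for 26 of the 27 marker genes, Ttr being the exception (18.2%).

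**Figure D3:**
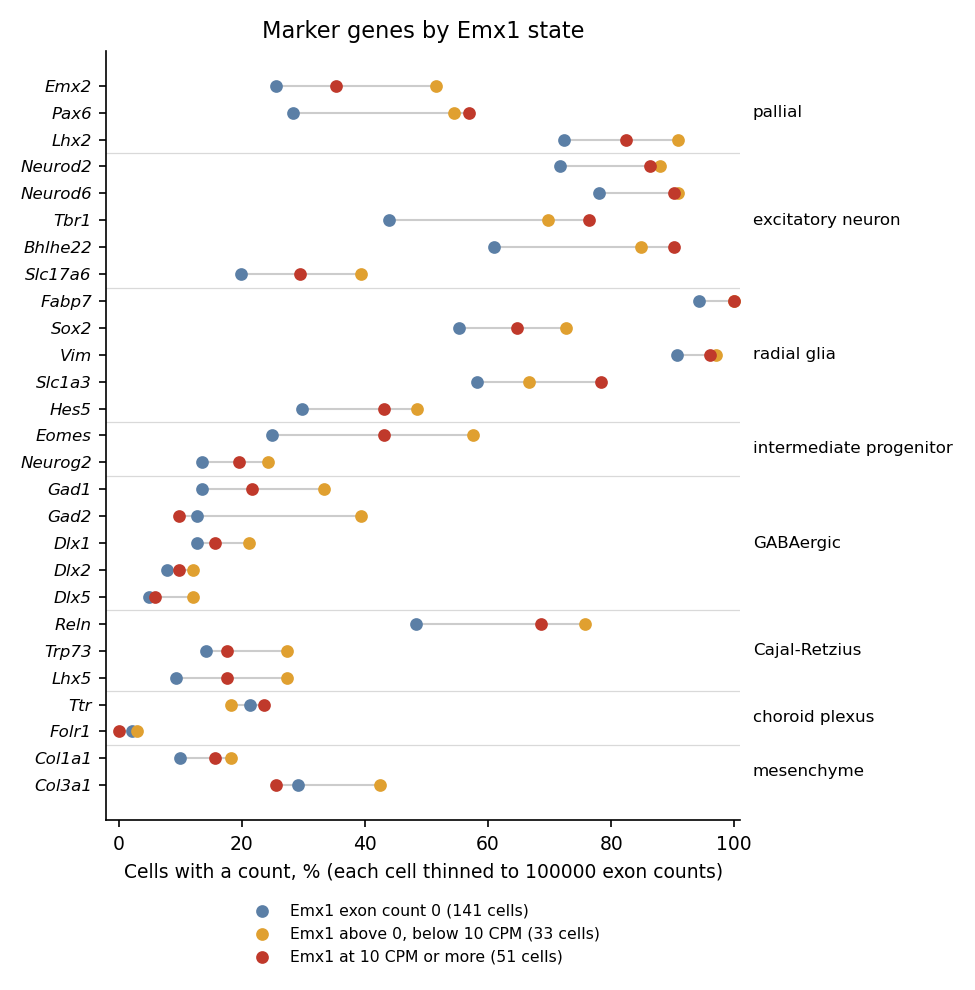
Percentage of cells with a count of each marker gene after thinning each cell to 100000 exon counts, for Emx1-expressing cells (red), cells below the threshold (yellow) and Emx1-negative cells (blue), grouped by cell type. Shares are higher with any Emx1 count for nearly every gene, whatever its cell type, for example Tbr1 (76.5, 69.7 and 44.0%), Slc1a3 (78.4, 66.7 and 58.2%) and Reln (68.6, 75.8 and 48.2%).

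To ask which genes differed beyond the richness of the libraries, exon counts were summed per clone and state and tested in edgeR with the clone as a block and the number of detected genes as a covariate. Emx1, which chose the cells, is left out of all counts. Of 7104 other genes tested, 0 were higher and 0 lower in Emx1-expressing cells at an adjusted p below 0.05 (0% in each direction). At an unadjusted p below 0.05 there were 10 higher (0.141%) and 551 lower (7.76%). DESeq2 on the same sums called 71 higher (0.999%) and 831 lower (11.7%), so the count of calls depended on the tool. Its median difference over all genes was -0.67 (log2). Emx1 itself, at 0 in every Emx1-negative sum by the rule, had an edgeR adjusted p of 0.0312, so a count of 0 does not show that the other genes were alike.

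The covariate set the level from which the differences were read. The median difference over all genes was -1.30 (log2) with it and 0.66 without it. The fitted difference of a single gene is therefore to be read against that median and not against 0. For some genes the value relative to the median of all genes is also given. By definition as many genes lie above this median as below it, so counts of list members above it are to be read against an even split. Without the covariate 0 genes passed in either direction (0%), with 319 higher (4.49%) and 30 lower (0.422%) at an unadjusted p below 0.05.

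**Figure D4:**
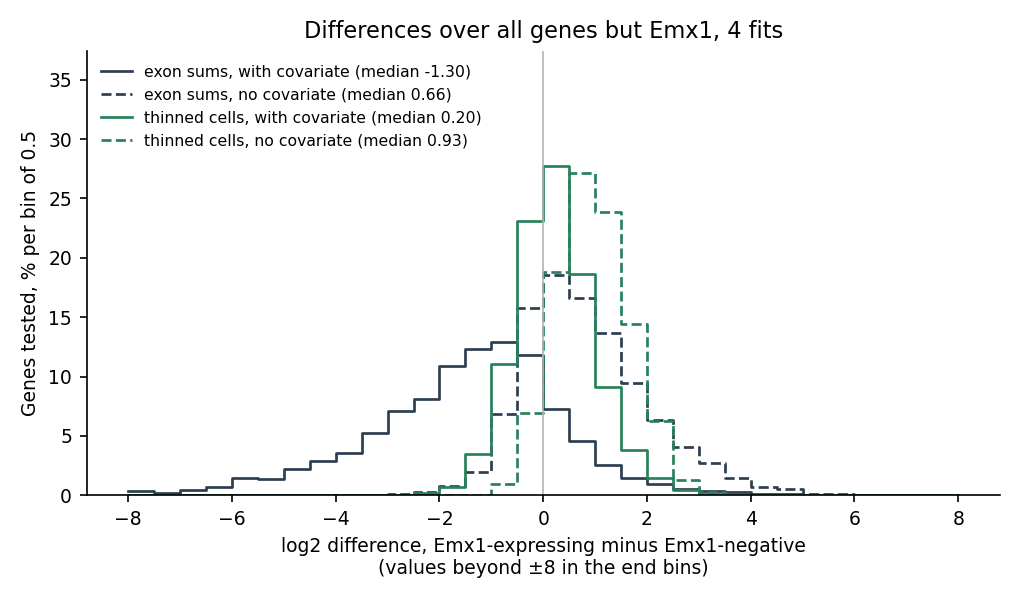
Distribution of the log2 difference, Emx1-expressing minus Emx1-negative, over all genes tested other than Emx1, as the percentage of genes per bin of 0.5, in 4 fits: edgeR on summed exon counts and limma on cells thinned to 100000 exon counts, each with and without the detected genes as a covariate. The median moves from -1.30 to 0.66 in the sums and from 0.20 to 0.93 in the thinned cells when the covariate is dropped. In both, the covariate was the detected genes of the full libraries.

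None of the other pallial patterning genes passed. Of 16 genes of this list, 9 were abundant enough to test, and 6 lay above the median of all genes (2 without the covariate). On the log2(CPM + 1) scale, the Lhx2 level ran from 0 over a median of 7.02 to 9.21 in the 27 Emx1-expressing sums and from 0 over 6.63 to 9.38 in the Emx1-negative sums of the same clones. The groups overlapped, and Lhx2 was higher in 13 clones and lower in 14 (log2 difference -0.89 ± 1.24 SE, edgeR adjusted p = 0.835, 0.41 above the median of all genes).

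Pax6 ran from 0 over 10.6 to 318 CPM against 0 over 11.2 to 190 CPM, higher in 12 clones and lower in 14 (-1.82 ± 2.00, edgeR adjusted p = 0.793). Relative to the median of all genes, Pax6 stood at -0.52. Emx2, the closest relative of Emx1, ran from 0 over 2.12 to 98.6 CPM against 0 over 0 to 386 CPM, higher in 10 clones and lower in 11 (-5.20 ± 3.00, edgeR adjusted p = 0.645). DESeq2 with the covariate gave Emx2 -6.40 (DESeq2 adjusted p = 0.000343) although the number of clones was nearly even in each direction, and edgeR without the covariate gave -0.49. Bcl11a, a factor of early cortical neurons, had levels of 0 over 8.18 to 9.73 against 0 over 7.93 to 9.94 on the log2(CPM + 1) scale (log2 difference -1.17 ± 0.89, edgeR adjusted p = 0.703). Relative to the median of all genes, Bcl11a stood at 0.13. The other 5 genes tested, Otx1, Gli3, Nr2f1, Nr2f2 and Lef1, had differences of -2.77 to -0.23 and adjusted p of 0.692 to 0.981 in edgeR.

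**Figure D5:**
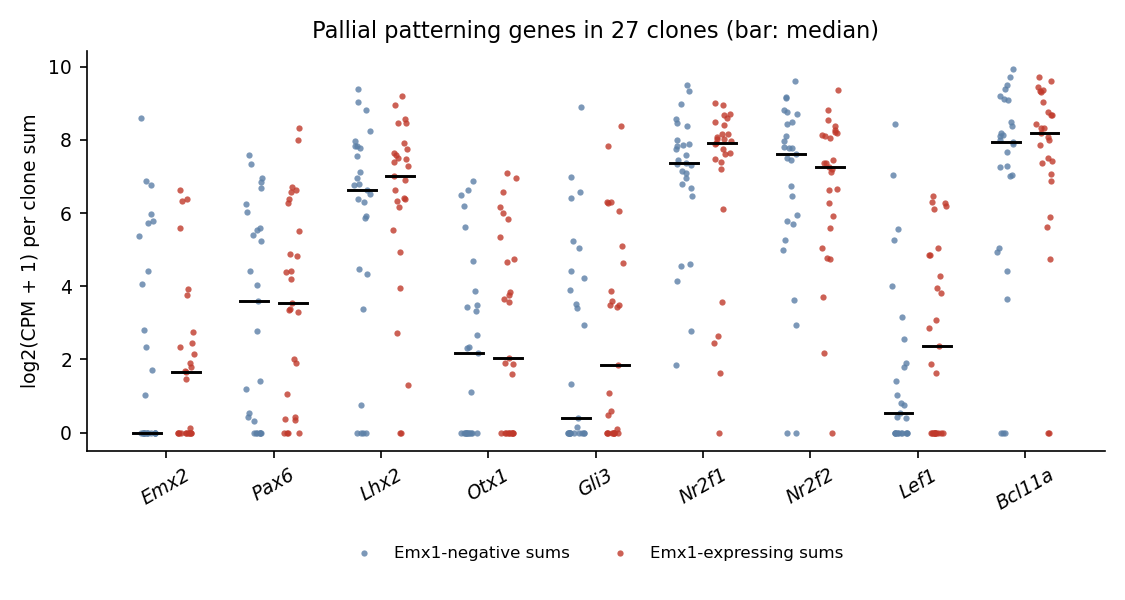
Level of the 9 tested pallial patterning genes in the Emx1-negative (blue) and Emx1-expressing (red) sum of each of 27 clones, as log2(CPM + 1); each point is a clone sum and bars mark the medians. The clouds of both states overlap for every gene, as for Lhx2 with medians of 6.63 and 7.02.

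Genes of dividing progenitors did not pass either. Of the radial glia list 19 of 22 genes were tested and 10 lay above the median of all genes (5 without the covariate), of the intermediate progenitor list 7 of 17 (3 above, 5 without), of the Notch pathway 6 of 13 (2 above, 3 without) and of the cell cycle 15 of 26 (9 above, 9 without). Hes5 ran from 0 over 3.34 to 56.0 CPM against 0 over 4.22 to 71.9 CPM (-2.95 ± 1.65, edgeR adjusted p = 0.639). Dll1, a Notch ligand of cells about to differentiate, had a median of 6.30 against 1.02 CPM and was higher in 13 clones and lower in 9, while the fitted difference was -4.61 ± 2.68 with the covariate (edgeR adjusted p = 0.650) and 0.92 without it. DESeq2 with the covariate gave Dll1 -5.17 (DESeq2 adjusted p = 0.000459). Cenpf, a kinetochore protein of mitosis, had a median of 4.75 against 11.8 CPM (-5.68 ± 2.80, edgeR adjusted p = 0.629), and the difference was -0.60 without the covariate. The late progenitor and gliogenic list had 12 of 15 genes tested, 10 of them above the median of all genes (6 without the covariate), and the early timing list 5 of 10 (2 above, 2 without).

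Genes of cortical neurons spread to both sides of the median. Of the excitatory neuron list 14 of 16 genes were tested and 10 lay above the median of all genes (7 without the covariate). Slc17a7, a vesicular glutamate transporter, had a median of 4.45 CPM in Emx1-expressing and 0 CPM in Emx1-negative sums and was higher in 17 clones and lower in 7 (2.15 ± 1.66, edgeR adjusted p = 0.707). Nrp1 and Mef2c of the same list had smaller p and lay below the median of all genes. Nrp1 was higher in 17 clones and lower in 10 (-2.22 ± 1.06, edgeR adjusted p = 0.629). Mef2c was higher in 11 clones and lower in 15 (-1.85 ± 1.19, edgeR adjusted p = 0.672). Of the deep layer list 12 of 14 genes were tested (4 above, 5 without), of the upper layer list 11 of 14 (5 above, 2 without) and of the subplate list 3 of 12 (1 above, 1 without). Lmo3, a cofactor of the deep layer list, had medians of 41.6 and 20.5 CPM and was higher in 16 clones and lower in 10 (1.88 ± 1.51, edgeR adjusted p = 0.710). Bcl11b, a factor of subcerebral projection neurons, had medians of 89.2 and 80.0 CPM (-2.28 ± 1.01, edgeR adjusted p = 0.629).

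All 21 genes of the immature neuron and cytoskeleton list were tested. Of these, 18 lay above the median of all genes with the covariate but 0 without it, so the place of this list depended on the fit. Tubb3, a neuronal tubulin, had medians of 826 and 1126 CPM (-1.31 ± 0.64, edgeR adjusted p = 0.629), and Dcx, a microtubule-binding protein of migrating neurons, 551 and 653 CPM (-1.22 ± 0.58, adjusted p = 0.629). Relative to the median of all genes, Tubb3 stood at -0.002 and Dcx at 0.08. Of the synapse list all 20 were tested (8 above, 8 without). The Cajal-Retzius list had 7 of 16 genes tested, 2 above the median of all genes and 0 without the covariate. In it, Zic1 had a median of 0.0916 CPM in Emx1-expressing and 3.56 CPM in Emx1-negative sums and was lower in 16 clones and higher in 8 (-6.23 ± 2.07, edgeR adjusted p = 0.629).

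Lists of other cell types held few genes abundant enough to test, and none passed: 1 of 21 in the GABAergic and subpallial list, 2 of 31 in the non-telencephalic neural list, 1 of 20 for cortical hem and choroid plexus, 5 of 12 for the medial and hippocampal list, 1 of 15 for mesenchyme and 2 of 10 for the oligodendrocyte lineage. No gene of the 14 for endothelium, microglia and blood or of the 14 for pluripotency and germ layers was tested. Meis2, the tested gene of the GABAergic and subpallial list, which is also expressed in cortical neurons, had median levels of 6.71 and 7.14 on the log2(CPM + 1) scale (log2 difference -2.23 ± 1.04, edgeR adjusted p = 0.629). Of the immediate early and stress genes 8 of 14 were tested (4 above, 4 without) and of the mitochondrial mRNAs 7 of 13 (7 above, 0 without).

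The genes of smallest p also missed the threshold. Among those higher in Emx1-expressing cells, Gamt, an enzyme of creatine synthesis, had a median of 12.0 against 0 CPM and was higher in 16 clones and lower in 4 (6.02 ± 1.99, edgeR adjusted p = 0.629). Sirt2, a deacetylase of tubulin and other proteins, had a median of 24.1 against 2.60 CPM and was higher in 19 clones and lower in 5 (4.44 ± 1.76, adjusted p = 0.629). The other 3 higher genes were Skida1, Klhl2 and Med27, a Mediator subunit, with differences of 4.66, 4.98 and 7.44. Among those lower, Gtf2b, which encodes the general transcription factor TFIIB, ran from 0 over 0 to 315 CPM against 0 over 1.96 to 1358 CPM (-12.16 ± 2.80, edgeR adjusted p = 0.268). It was lower in 13 clones and higher in 10, and its difference was -2.90 without the covariate. Gm3764, Abcf1, mt-Tp and Phip followed with differences of -5.42 to -3.97 and adjusted p of 0.629.

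Intron counts come largely from unspliced transcripts. Of 4331 genes, 0 were higher and 0 lower at an adjusted p below 0.05 in edgeR (0% in each direction), with 2 higher (0.0462%) and 364 lower (8.40%) at an unadjusted p below 0.05. The difference between the states depended on the clone type for 0 of 7104 genes in edgeR's interaction term (0%). At an unadjusted p below 0.05 the difference was larger (more positive) in SN clones for 150 genes (2.11%) and smaller for 41 (0.577%). The median over all genes was 0.57 (log2) for the interaction term and -1.04 for the intron counts, and both imbalances are to be read against it.

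Because the cells of a clone weigh unequally in a sum, the mean log2(CPM + 1) of cells thinned to 100000 exon counts was also compared in 25 clones with limma, a choice made after seeing the data. Without the covariate, 1060 of 10469 genes were higher (10.1%) and 2 lower (0.0191%) in Emx1-expressing cells, against a median over all genes of 0.93. This fit sets richer against poorer libraries, a difference tied to the rule, so its calls are a description. The covariate in this comparison was the detected genes of the full libraries and not those after thinning. With it 1 gene was higher (0.00955%) and 0 lower, with 499 higher (4.77%) and 96 lower (0.917%) at an unadjusted p below 0.05. That gene, Nemf, which encodes a subunit of the ribosome quality control complex, was counted in 96.1% of Emx1-expressing and 57.4% of Emx1-negative cells (3.76 ± 0.78, limma adjusted p = 0.0211). Without the covariate Nemf stood at 2.92 ± 0.62 (limma adjusted p = 0.00478), and in cells matched for detected genes at 0.82 ± 0.84 (limma adjusted p = 0.862).

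In the thinned cells without the covariate, 20 list members were higher, which is 8.16% of those tested. This is below the 10.1% of all genes, so the lists as a whole did not stand out. The values of this fit describe richer against poorer libraries and do not single out genes that go with Emx1. The lists ranged from 0 of 15 (Cajal-Retzius), 0 of 13 (upper layer), 0 of 9 (early timing), 1 of 24 (cell cycle) and 1 of 20 (synapse) to 5 of 14 (late progenitor), and no list was tested against the 10.1%. Of the excitatory neuron list 4 of 15 rose, among them Nfib (100% and 93.6% of cells, 1.80 ± 0.40, limma adjusted p = 0.00531), Nfia (2.45 ± 0.60, adjusted p = 0.011) and Neurod6 (1.68 ± 0.59, adjusted p = 0.0499). Nfia and Nfib encode nuclear factors that act in late progenitors and in neurons, and both also stand in the late progenitor list, of which 5 of 14 rose. Of the radial glia list 4 of 22 rose, among them Fabp7 (1.05 ± 0.35, limma adjusted p = 0.0424) and Notch1 (1.99 ± 0.67, adjusted p = 0.0424). Of the deep layer list 2 of 14 rose, Sox5 (2.28 ± 0.71, limma adjusted p = 0.0332) and Lmo3 (80.4% and 39.7% of cells, 2.26 ± 0.71, adjusted p = 0.0349). Of the immature neuron list 3 of 21 rose, among them Stmn2 (0.92 ± 0.24, limma adjusted p = 0.0147).

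Bcl11a was the only pallial patterning gene of 13 that rose in this comparison (1.63 ± 0.57, limma adjusted p = 0.0498), while Pax6 (1.55 ± 0.70, adjusted p = 0.107) and Emx2 (0.24 ± 0.60, adjusted p = 0.770) did not pass. The lower genes were ENSMUSG00000119584 and Rpph1, the RNA component of RNase P (-1.48 ± 0.47, limma adjusted p = 0.0357). ENSMUSG00000119584 is part of the exon total that scales the Emx1 CPM, so its values are a description with no test. They were -0.63 ± 0.09, -0.18 with the covariate and -0.15 in cells matched for detected genes. With the covariate none of these list members passed, the nearest being Stmn2 (1.38 ± 0.32, limma adjusted p = 0.113). The number of detected genes moved with these differences, and its part in them was not tested beyond these fits.

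A last comparison kept only cells with 4000 to 8000 detected genes at 100000 exon counts, 30 Emx1-expressing and 44 Emx1-negative cells, of which 9 clones had both. Of 8228 genes other than Emx1, 0 were higher (0%) and 1 was lower (0.0122%) at an adjusted p below 0.05 in limma without the covariate, with 481 higher (5.85%) and 79 lower (0.96%) at an unadjusted p below 0.05 and a median of 0.44. The lower gene was mt-Rnr2, a mitochondrial ribosomal RNA (-0.33 ± 0.07, limma adjusted p = 0.0272). The fit over 9 clones was weak, since Emx1 itself, which chose the cells, missed the threshold in it (5.02, limma adjusted p = 0.302). Of the 1060 genes called higher in all thinned cells without the covariate, 989 were tested here and 922 of these (93.2%) kept a positive value, against 66.4% of all genes tested; the cells are a subset of those that gave the calls. Among genes named above, Nfib stood at 0.67 ± 0.44 (limma adjusted p = 0.801), Nfia at 2.88 ± 0.86 (adjusted p = 0.697), Lmo3 at 0.16 ± 1.10 (adjusted p = 0.990) and Neurod6 at -1.01 ± 0.73 (adjusted p = 0.815).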

How the data were processed

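The authors deposited unscaled counts for each gene in each cell, 1 table for exons and 1 for introns (55359 gene IDs, 287 libraries). Of these libraries 284 had a clone label and 247 were kept, 163 of them Emx1-negative. The submitters' processing notes name STAR 2.7.9a, R 4.4.0 and the build GRCm39. The counting tool, annotation and use of molecular identifiers are not given in the sources used here, so counts are read as reads. Symbols matched 52083 IDs (83.4% of exon counts).

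Counts were summed per clone and Emx1 state, so that the clone is the replicate, and both sums of a clone share its type and, except in clone 45, its plate (the block). Sums were tested with edgeR 4.0.16 (quasi-likelihood F test, TMM, filterByExpr, Benjamini-Hochberg, threshold 0.05) in R 4.3.3, with the log2 of the mean detected genes as a covariate. Standard errors (±) were taken as the absolute log2 difference divided by the root of its F value, and for limma by its moderated statistic. DESeq2 1.42.0 and limma 3.58.1 were alternatives. Thinning drew counts without replacement once per cell. Permutation tests used 100000 resamples. No blocked pairing by replicate number exists, since the labels' numbers only name cells.

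The text names, per direction, the 5 genes of smallest p (15 where more pass), the tested pallial patterning genes (2 genes of this list are not reported here and enter no list count), and among the other lists' 3 members of smallest p those with the most to describe; genes of the thinned comparisons and DESeq2's list members were chosen after their values were seen. The members and gene lists were chosen with earlier results of these data known. Scripts were tested on simulated data. In simulated sums with the main design, edgeR called 2.06% of genes changed by a log2 difference of 2 in either direction. For genes changed by 4 it called 29.1%, with 0 false calls. Genes that did not pass may therefore still differ. Clone 45 carries 2 plate labels and was put on plate 3.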

Additional observations from a re-analysis of the deposited data

How the results depend on the processing

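Counts of genes other than Emx1 stayed at 0 higher and 0 lower without the covariate, with DESeq2's size factors in edgeR, with any Emx1 count as the threshold and without clone 16. They were also 0 with 50 CPM as the threshold, in cells of at least 300000 exon counts, without any 1 plate and in SN or N clones alone, but there Emx1 itself missed the threshold (edgeR adjusted p = 0.0791 to 0.9997), and in summed thinned cells Emx1 did not pass the filter on low counts, so these counts say nothing about stability. They moved under DESeq2 (71 higher and 831 lower), under limma-voom (1 higher, Tmsb4x, and 1 lower, Malat1) and with no filter on low counts (0 higher and 2 lower, ENSMUSG00000119584 and Gtf2b). Of these, ENSMUSG00000119584 is tied to the rule through the exon total. In the comparisons of thinned cells, added after seeing the data, 1 gene was higher and 0 lower with the covariate, 1060 and 2 without it, and 0 and 1 in cells matched for detected genes.

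With no replicate block (plate in place of the clone, all 68 clones), exon counts again gave 0 higher and 0 lower genes, while intron counts gave 170 genes (12 higher, the others lower) against 0 with the clone as the block; the cause was not tested. The median over all genes ran from -1.78 (threshold of 50 CPM) to 0.66 (no covariate) among the edgeR fits of exon sums. Of 70 named genes, 22 changed side of the median of all genes without the covariate, 20 without the block and 17 with any Emx1 count. Over all alternatives the number ran from 2 (DESeq2's size factors) to 27 of 69 (thinned cells matched for detected genes).

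With any Emx1 count in place of 10 CPM, the mitochondrial share differed by -0.148 percentage points and the green minus red share by 1.38 points (permutation p = 0.863), each opposite in sign to the main value and within the spread. The other differences in cell measures and shares kept their sign, but in cells of at least 300000 exon counts the green minus red share moved to -12.9 points (permutation p = 0.176) and the SN minus N share to -9.15 points (permutation p = 0.263). Depth limits the Emx1-negative group most: 22 of its cells, 13.5%, had fewer than 100000 exon counts. After thinning to 100000 exon counts, Emx1 was still counted in 92.2% of Emx1-expressing cells and in 30.3% of cells below the threshold.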

Other observations

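DESeq2 with the same design and covariate gave 1 tested list member (0.595%) a positive and 13 (7.74%) a negative difference at an adjusted p below 0.05, against 0.999% and 11.7% of all genes. Whether these shares differ was not tested. The DESeq2 differences are to be read against their median over all genes, -0.67. The positive one was Cplx1, a regulator of vesicle fusion at synapses (3.69, DESeq2 adjusted p = 0.00582), which was higher in 19 clones and lower in 7. Clone counts are of levels not adjusted for detected genes: of the 13 members with a negative value, the level was lower in more clones for 7, higher in more for 5 and even for 1. Vamp2, a vesicle protein of synapses, had -2.02 (DESeq2 adjusted p = 0.0147) and was lower in 18 clones and higher in 9. Nlgn1, a postsynaptic adhesion protein, had -4.01 (DESeq2 adjusted p = 0.00284) and was higher in 13 clones and lower in 11. The progenitor and upper layer factor Pou3f2 had -3.83 (DESeq2 adjusted p = 0.0145), with 13 clones in each direction and median levels of 44.9 CPM in Emx1-expressing and 8.47 CPM in Emx1-negative sums. The semaphorin receptor gene Nrp2 had -2.82 (DESeq2 adjusted p = 0.0223), with 14 clones higher and 13 lower. edgeR's quasi-likelihood test called none of these 5 genes.

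In the thinned cells the sign for Nlgn1, Pou3f2 and Nrp2 depended on the covariate, against a median over all genes of 0.93 without and 0.20 with it. Without it, where the fit describes richer against poorer libraries, Cplx1 was counted in 66.7% of Emx1-expressing and 32.6% of Emx1-negative cells (2.12 ± 0.71, limma adjusted p = 0.0424). Nlgn1 was counted in 60.8% and 34.8% (0.38 ± 0.72, limma adjusted p = 0.688), Pou3f2 in 51.0% and 36.2% (1.38 ± 0.73, adjusted p = 0.162) and Nrp2 in 82.4% and 58.2% (1.29 ± 0.73, adjusted p = 0.188). With the covariate the differences were 2.55 for Cplx1, -0.78 for Nlgn1, -0.73 for Pou3f2 and -0.93 for Nrp2 (limma adjusted p = 0.530 to 0.998).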
